A study of Mus musculus with 11 samples.

Results

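Collagen chain genes were described across 4 groups of mouse tibialis anterior muscle, a fast muscle of the lower leg. They were the genes whose only symbol in the probe annotation had the form of a collagen chain (Col, a type number, a and a chain number), and each was represented by its probe set with the highest mean signal over the 11 arrays. The rule found 42 genes with 82 probe sets among 18194 genes with a single symbol. By textbook class, 11 were fibrillar, 9 belonged to basement membranes, 9 were put with the networks (types VI, VIII, X and XXVI), 4 were synaptic and other transmembrane collagens and 9 were fibril-associated. The microarrays were hybridised with total RNA, and the deposited signals are intensities on a linear scale.

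Mice of either genotype had 1 floxed and 1 null copy of Runx1, which encodes a transcription factor. Control muscle was runx1 f/- without Cre. Mutant muscle was runx1f/-; MCK::cre, so that Cre was made under the promoter of muscle creatine kinase, which is active in the fibres. The muscle was innervated or, per the sample titles, had been denervated for 3 days. Control muscle had 3 innervated and 3 denervated arrays, and mutant muscle had 2 and 3. For denervated control 3 the treatment note has 5 days instead, so results that change without that array are given both ways. Age was not given in the sources used here. Only the mutant carried Cre, so an effect of Cre and one of targeting Runx1 cannot be told apart. Connective tissue cells, which make most collagen, are not where that promoter is known to act. Nothing in the labels makes the replicates separate animals. The p-values then measure only the spread between these samples, which may be technical.

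Collagens are the main structural proteins of the extracellular matrix. Each molecule is a triple helix of chains in which glycine recurs along the sequence. Fibrillar collagens assemble into the cables of tendon and of the connective tissue around muscle fibres, and fibril-associated collagens sit on the surface of those cables. Type IV chains form the sheet of the basement membrane that wraps every muscle fibre, and type VI forms fine beaded filaments beside that sheet. At the neuromuscular junction the basement membrane has its own chains, and membrane-spanning collagens of the muscle fibre take part in contact with the motor nerve.

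Array medians were 442.5 to 604.6, with maxima of 171982 to 304181. Precision is limited by how many arrays there are. The targeted gene, Runx1 (probe set 1422864_at), gave 504.5, 519 and 179 on innervated and 23499, 25898 and 24353 on denervated control arrays, and 288 and 395 against 20403, 20449 and 23185 in the mutant. It rose with denervation by 6.02 and 5.91 on the log2 scale and did not pass between them (-0.20 ± 0.30 SE in denervated muscle, limma adjusted p = 0.884). No position of this probe set relative to the floxed part was used here, so it does not check the genotype labels.

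The 3 bacterial trp control probe sets were taken as the level of background: their signals ranged from 13.8 to 440, and the highest in a group was 398 in innervated control, 440.0 in denervated control, 310.3 in innervated mutant and 201 in denervated mutant muscle. A collagen gene was called near background in a group whose mean signal did not exceed that value. Where a group was near background, the change is given as at least that between the other group and this level (or the gene's own signal on an array where that was higher). Because the threshold differs between groups, a gene with the same signal in both denervated groups can fall on either side of it.

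Of the 42 genes, 29 lay above background in all 4 groups, 8 lay near it in all 4 and 5 were mixed. The 8 near background throughout were Col2a1, the fibrillar chain of cartilage, Col9a2 and Col9a3, chains of the cartilage collagen that coats those fibrils, Col10a1 of hypertrophic cartilage, Col6a4 and Col6a5, alternative type VI chains, Col17a1 of epithelial hemidesmosomes, and Col13a1. Col13a1 encodes a transmembrane collagen that is concentrated at the neuromuscular junction. Col13a1 (probe set 1422866_at) gave 75.4, 381 and 174 on innervated and 224, 283 and 282 on denervated control arrays, and 138 and 422 against 352, 8.8 and 29.5 in the mutant. No group of it stood apart from the others, and none of its group means exceeded the trp level. Col26a1 was above the trp level in innervated mutant muscle alone, where its signals were 299.8 and 413 against a limit of 310.3, and near it in the other groups. Group means of the 8 ran from 55.1 (Col10a1) to 316 (Col9a3). Col26a1 and these 8 genes exceeded the median of their own array on 0 of 11 arrays and did not enter the tests, which needed 2 arrays above it. The other 4 mixed genes each crossed the trp level with innervation: Col24a1, Col4a3 and Col9a1 were near it only in denervated groups, and Col25a1 only in innervated groups.

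**Figure D1:**
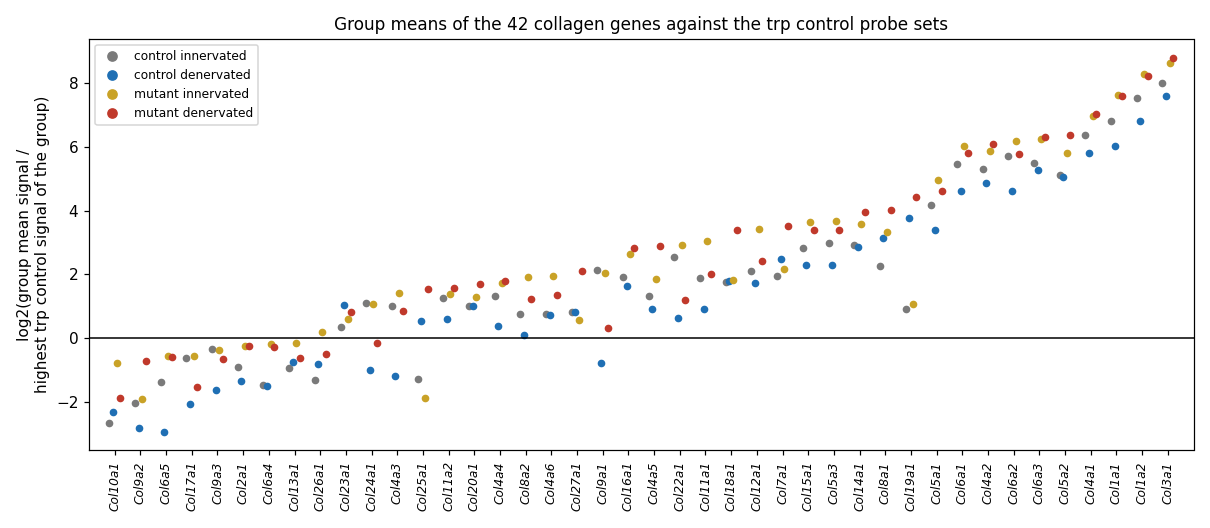
Group mean signal of the 42 collagen genes as log2 of its ratio to the highest trp control signal of the same group, with 1 point per group. Points at or under the line at 0 are near background: 8 genes lie there in all 4 groups and 29 above it in all 4. The order of the genes is by the highest of their 4 points and says nothing of how abundant their RNAs are, since probe sets differ in how they bind.

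Denervation asks how the muscle responds to loss of its nerve, and the genotype comparisons ask whether that response differs in muscle with MCK::cre. With denervation Col19a1, Col25a1 and Col7a1 rose in both genotypes, and Col9a1, Col22a1, Col24a1, Col6a1, Col6a2, Col5a1, Col5a3 and Col4a1 fell in both on the scale of the deposited signals, although Col6a1, Col5a1, Col5a3 and Col4a1 turned positive in control muscle when arrays were centred on spike-ins. In control muscle 13 of the 33 tested collagen genes passed (4 up, 9 down) beside 34.5% of all 12214 tested genes (18.1% up and 16.4% down), by limma at a Benjamini-Hochberg adjusted p of at most 0.05. In mutant muscle 18 passed (4 up, 14 down) beside 30.5% of all genes (16.7% up and 13.8% down). The median log2 change of the 33 was -0.29 in control and -0.56 in mutant muscle, beside -0.01 over all tested genes in each. Without denervated control 3, the array with the note of 5 days, 14 passed in control muscle (3 up, 11 down), with Col25a1 lost and the fibrillar genes Col1a1 and Col11a1 added as falls. Other tested probe sets of the called genes had the sign of the chosen one for 10 of 10 in control and 12 of 12 in mutant muscle. Of these, 5 in control and 9 in mutant muscle passed themselves. In these bulk samples fewer cells of a type and less RNA per cell cannot be told apart.

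The share of falls depends on the scale of the arrays. The authors' signals have the same trimmed mean on every array. The control probe sets for BioB, BioC, BioDn and CreX, called spike-ins here, read lower on denervated arrays (mean log2 12.73 to 13.40) than on innervated ones (13.58 to 14.09). Whether they track the amount of RNA in a sample was not tested, so rises on this scale are relative to these controls. A measure of RNA quality differed too. The log2 signal of 3' minus 5' control probe sets for Gapdh and actin was -0.07 to 0.04 on denervated and -0.16 to -0.08 on innervated arrays, without overlap. With it as a covariate 8 members passed in control (1 up, 7 down) and 14 in mutant muscle (3 up, 11 down). The median change of the members was then -0.60 in control and -1.01 in mutant muscle, larger in size than without it. Since this measure did not overlap between innervated and denervated arrays, the fit separates it poorly from denervation. Its part in the changes was otherwise not tested. Centring each array on those spike-ins shifted the median change of all genes to 0.95 in control and 0.51 in mutant muscle. Counts then became 17 up and 2 down in control and 5 up and 2 down in mutant muscle. With each array centred on its median instead, 4 rose and 6 fell in each genotype. Changes below are relative to the deposited scale. On spike-in centring 16 of 33 members turned from negative to positive in control muscle and 9 in mutant muscle, of which 4 and 2 had been called falls. Of those in control muscle 7 then passed as rises: Col4a1, and 6 that had not passed before, Col3a1 (0.71), Col4a2 (0.66), Col4a5 (0.72), Col15a1 (0.54), Col16a1 (0.80) and Col6a3 (0.90).

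**Figure D2:**
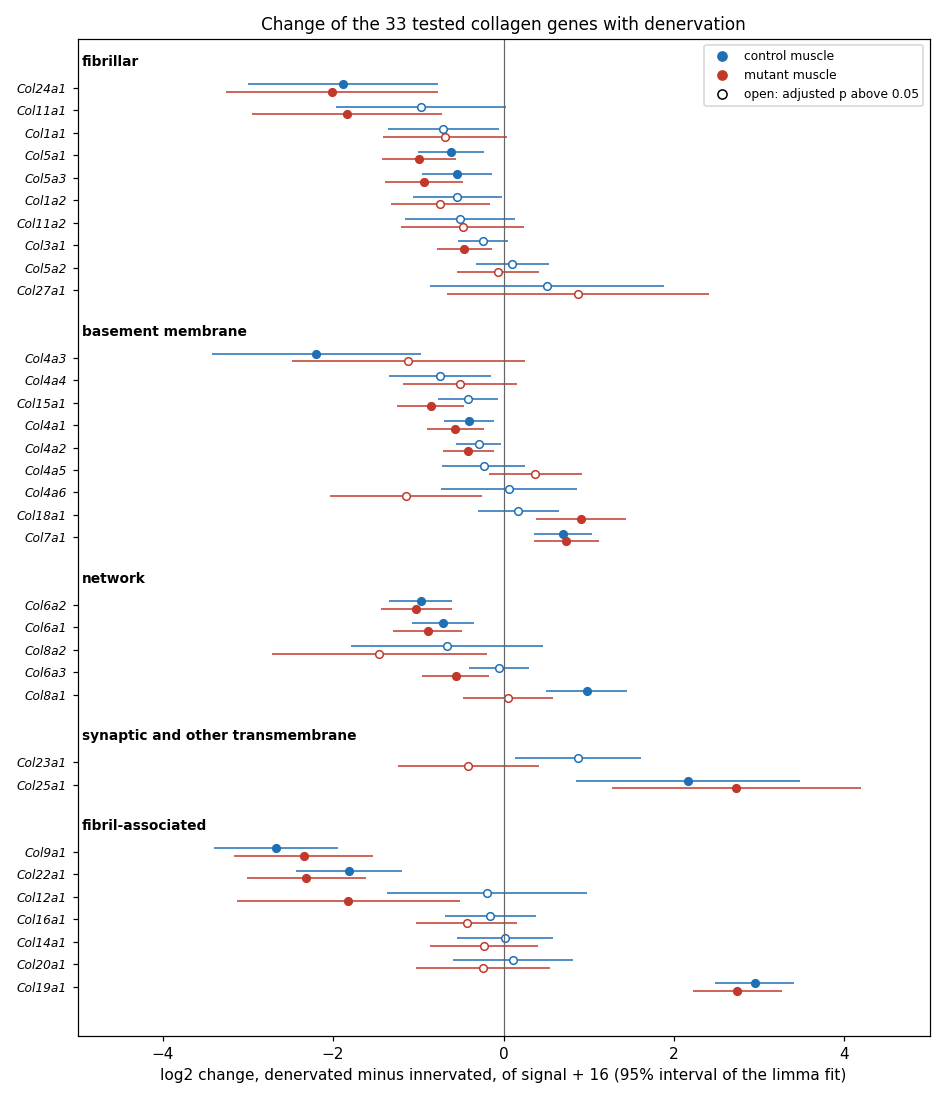
Log2 change with denervation of the 33 tested collagen genes, by class, in control (blue) and mutant (red) muscle, on log2(signal + 16). Bars are 95% intervals of the limma fit and open points have an adjusted p above 0.05. Col19a1 and Col25a1 lie farthest to the right and Col9a1, Col22a1 and Col24a1 farthest to the left among the filled points of both genotypes. On spike-in centring all points shift right, and 16 points in control and 9 in mutant muscle cross 0, among the filled ones Col4a1, Col5a1, Col5a3 and Col6a1 in control and Col3a1 and Col4a2 in mutant muscle.

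Fibril-associated collagens held the largest fitted rise (Col19a1) and the largest fitted fall in either genotype (Col9a1 in both). Of 7 tested, 1 rose and 2 fell in control muscle and 1 rose and 3 fell in mutant muscle. The median was -0.15 and -0.43 and became 0.80 and 0.09 on spike-in centring. The counts of each class stand beside 34.5% of all tested genes that passed in control and 30.5% in mutant muscle. Col19a1 encodes a chain found beside muscle fibres during their differentiation. Col19a1 (probe set 1421698_a_at) gave 886, 734 and 648 on the innervated control arrays and 7214, 5604 and 5068 on the denervated control arrays. In mutant muscle it gave 784 and 507 when innervated and 4891, 4724 and 3496 when denervated. Every denervated array lay above every innervated array in both genotypes. The rise was 7.72-fold in control (log2 change 2.95 ± 0.22 SE, limma adjusted p = 5.8e-07) and 6.71-fold in mutant muscle (2.75 ± 0.24 SE, adjusted p = 4.17e-06). Another tested probe set of Col19a1 rose by 2.71 in control and 2.57 in mutant muscle (adjusted p = 2.01e-05 and 0.000108). The denervated mutant arrays all lay below the denervated control arrays, a difference of -0.45 ± 0.22 that did not pass (95% interval -0.91 to 0.02, adjusted p = 0.47).

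The promoter window of Col19a1, the member with the largest rise, is shown because Runx1 is the gene targeted in the mutant and because E-boxes are the letters that myogenic factors bind. RefSeq places its start on the minus strand of chromosome 1, and the 250 bases before it are chr1:24587438-24587687 (GRCm38.p6). Capitals mark the RUNX core TGCGGT, read on the other strand as ACCGCA and with 243 bases between it and the start, and the E-box CAACTG, with 188 between.
Col19a1: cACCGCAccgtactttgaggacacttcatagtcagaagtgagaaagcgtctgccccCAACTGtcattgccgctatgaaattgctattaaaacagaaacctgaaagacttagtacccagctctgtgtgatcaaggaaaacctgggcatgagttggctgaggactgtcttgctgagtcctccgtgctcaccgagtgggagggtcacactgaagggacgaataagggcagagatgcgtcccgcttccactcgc
A match is a description and not a bound site. Windows were found for 33 of the 42 members, 36 windows in all, and both strands were searched. Of member windows 8.33% held TGCGGT and 8.33% TGTGGT, the other RUNX core, beside 5.1% and 14% of 32851 promoter windows of the same length. The E-box CANNTG was in 50% of member windows beside 66.2% of all, and CCAAT in 36.1% beside 33.8%. Col4a2 and Col4a4 were the other members with TGCGGT.

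Col9a1 and Col22a1 fell. Col9a1 encodes a chain of the type IX collagen known from cartilage, and Col22a1 a collagen of the myotendinous junction, where muscle fibres end on tendon. Col9a1 (probe set 1428571_at) gave 1221, 2176 and 1838 on the innervated control arrays and 252, 211 and 306 on the denervated control arrays. The innervated mutant arrays gave 1143 and 1428, and the denervated mutant arrays 266, 146 and 343. No denervated array reached an innervated one, and the denervated control mean lay near background. With the denervated control arrays set at the group's trp level, its fall in control muscle was at least 3.76-fold (fitted log2 change -2.67 ± 0.34 SE, adjusted p = 5.92e-05), and in mutant muscle it was 5.09-fold (-2.35 ± 0.38 SE, adjusted p = 0.000537). Another probe set of Col9a1 gave -0.96 and -2.01, which did not pass (adjusted p = 0.384 and 0.1). Col22a1 (probe set 1453084_s_at) gave 2057, 2724 and 2145 on the innervated control arrays and 624, 397 and 1047 on the denervated control arrays. Its mutant signals were 2487 and 2243 innervated and 491, 394 and 509 denervated. The groups did not overlap in either genotype. Col22a1 fell 3.52-fold in control (-1.82 ± 0.29 SE, adjusted p = 0.000377) and 4.97-fold in mutant muscle (-2.31 ± 0.32 SE, adjusted p = 0.000179). Its other 2 probe sets gave -0.94 (adjusted p = 0.00364) and -0.22 (0.656) in control muscle and -1.29 (0.00116) and -1.25 (0.0221) in mutant muscle.

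The calls of Col19a1 and Col22a1 held in both genotypes under every alternative run and without each array in turn. Those of Col9a1 held wherever it was tested, but with a minimum of 6 arrays above the median it was not tested, as it passed on 5. Col12a1, which coats type I fibrils in tendon and muscle connective tissue, passed in mutant muscle only. Col12a1 (probe set 1434411_at) gave 1292, 2891 and 910.2 on the innervated control arrays and 660.2, 1615 and 2099 on the denervated control arrays. Mutant muscle gave 2988 and 3619 with its nerve and 1775, 1106 and 391.6 without. Its control groups overlapped, and in mutant muscle both innervated arrays lay above the denervated ones. The change was -1.82 ± 0.61 SE in mutant muscle (adjusted p = 0.0418) and -0.20 in control muscle (95% interval -1.37 to 0.97), and the interaction of -1.62 did not pass (adjusted p = 0.693). The call ended without either innervated mutant array, denervated mutant 2 or 3, innervated control 1 or denervated control 2 (adjusted p = 0.0528 to 0.183). It also ended on spike-in centring (-1.30, 0.0762) and with median scaling (-1.52, 0.061). The same held with no minimum arrays (0.0546), with eBayes without trend (0.0792) and with the replicate block over all arrays (0.0684). Col14a1, Col16a1 and Col20a1 did not pass in either genotype, with changes from -0.43 to 0.11.

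**Figure D3:**
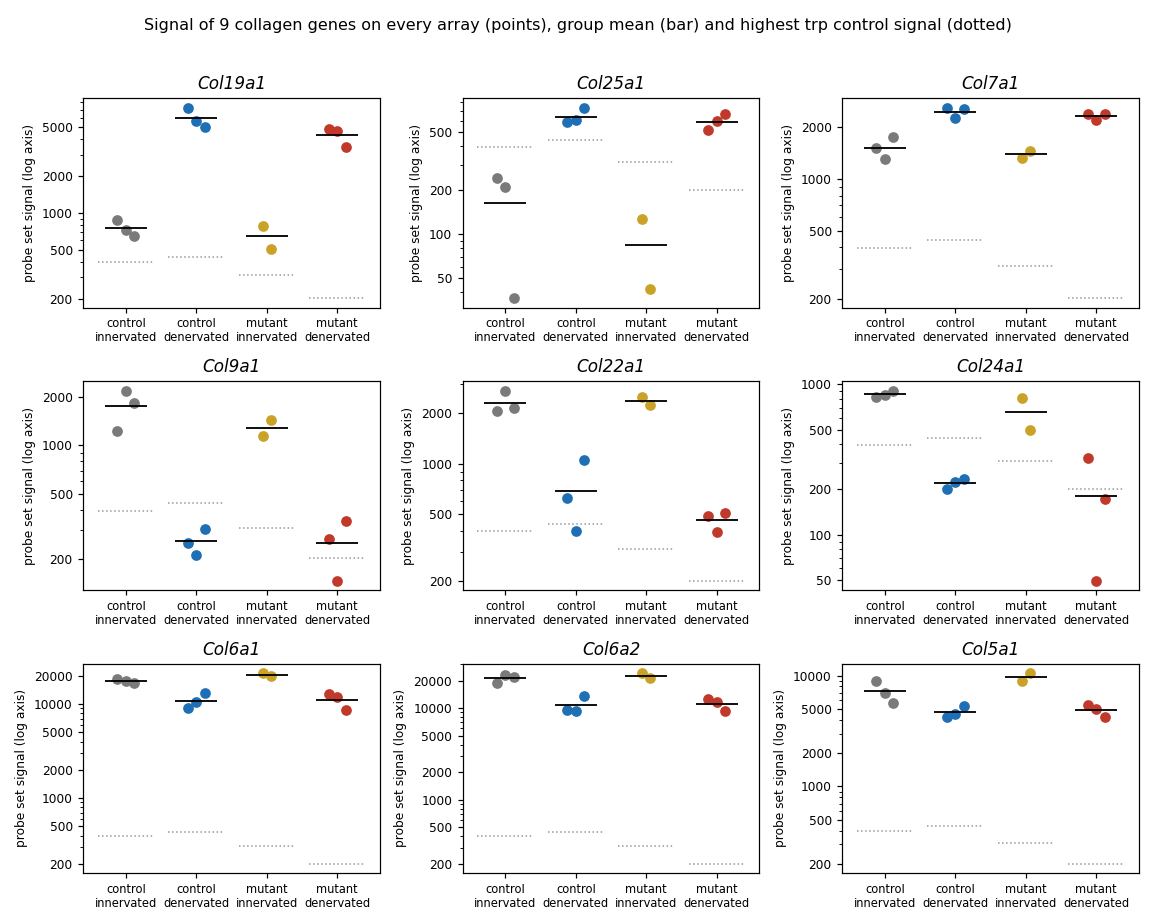
Signal of 9 collagen genes called in both genotypes on each of the 11 arrays (points), on a log axis, with the group mean (bar) and the highest trp control signal of the group (dotted). Col19a1, Col25a1 and Col7a1 are higher on every denervated array of a genotype than on its innervated arrays, and the other 6 are lower, on the deposited scale. Col6a1 and Col5a1 turn sign in control muscle on spike-in centring. Col4a1 and Col5a3 were also called in both genotypes and are not shown. The control groups of Col5a3 overlapped.

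Of the synaptic and other transmembrane collagens only Col25a1 and Col23a1 were tested, since Col13a1 and Col17a1 were near background. Col25a1 rose in both genotypes and Col23a1 passed in neither; the median change was 1.52 in control and 1.16 in mutant muscle. Col25a1 encodes a membrane collagen of muscle fibres that developing motor axons need to enter muscle. Col25a1 (probe set 1438540_at) gave 244, 210.1 and 36.4 on the innervated control arrays and 583, 604 and 732 on the denervated control arrays. On mutant arrays the values were 126 and 42 when innervated and 516, 596 and 661 after denervation. The denervated arrays lay above all innervated arrays, whose means were near background in both genotypes. The rise was therefore at least 1.58-fold in control and at least 1.85-fold in mutant muscle over the trp level of the innervated group. The fitted changes were 2.16 ± 0.61 SE (adjusted p = 0.0162) and 2.73 ± 0.68 SE (adjusted p = 0.00974). Without denervated control 3, whose note gives 5 days, the control call ended (adjusted p = 0.0564), as it did with the 3' minus 5' signal as a covariate (2.75, 0.0564), and without innervated mutant 2 the mutant call ended (adjusted p = 0.0913).

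The Col25a1 promoter window is shown because this gene left background on denervation in both genotypes. It covers the 250 bases before the RefSeq start on the plus strand, chr3:130180595-130180844 (GRCm38.p6), and capitals mark its longest exact repeat.
Col25a1: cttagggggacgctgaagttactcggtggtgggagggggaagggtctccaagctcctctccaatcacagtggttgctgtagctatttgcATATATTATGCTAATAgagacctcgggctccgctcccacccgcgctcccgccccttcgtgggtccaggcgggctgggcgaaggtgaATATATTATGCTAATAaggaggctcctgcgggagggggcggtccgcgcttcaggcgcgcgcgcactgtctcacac
The repeat ATATATTATGCTAATA has 16 bases, and 145 and 59 bases separate its copies from the start. It was chosen for display after it was seen; a repeat of at least this length occurs in 1.98% of all windows and in 2 member windows. The window holds CCAAT and none of the other letters searched.

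Col23a1 encodes a transmembrane collagen of less well known function. Col23a1 (probe set 1440911_at) gave 366, 749 and 404 on the innervated control arrays and 826, 739 and 1177 on the denervated control arrays. In mutant muscle it gave 464 and 475 when innervated and 437, 247 and 391 when denervated. The denervated control arrays were the highest, apart from an overlap with innervated control 2, and the denervated mutant arrays all lay below them. Denervation gave 0.88 ± 0.34 SE in control (95% interval 0.14 to 1.61, adjusted p = 0.0718) and -0.41 ± 0.38 SE in mutant muscle (-1.24 to 0.41, adjusted p = 0.454). Between genotypes in denervated muscle it gave -1.32 ± 0.34 SE, the smallest p among the members, and did not pass (95% interval -2.06 to -0.58, adjusted p = 0.0808). Its other 2 probe sets gave -1.11 and -1.10 (adjusted p = 0.206 and 0.333). Without innervated control 2 it passed (adjusted p = 0.0449, and 0.0215 for denervation in control muscle), as it did on spike-in centring (-1.79, adjusted p = 0.00733).

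Fibrillar collagens fell or did not pass. Of 10 tested genes 3 fell in control and 5 in mutant muscle and 0 rose. Of all tested genes 16.4% fell in control and 13.8% in mutant muscle, and 18.1% and 16.7% rose. Median changes of the class were -0.54 and -0.71 and became 0.41 and -0.19 on spike-in centring. Col24a1, a fibrillar chain known from developing bone and cornea, fell in both genotypes. Col24a1 (probe set 1453418_at) gave 822, 847 and 906 on the innervated control arrays and 202, 224 and 236 on the denervated control arrays. The innervated mutant arrays gave 808 and 499, and the denervated mutant arrays 326, 49.4 and 172. The groups did not overlap in either genotype, and both denervated means were near background. The fall was at least 1.92-fold in control (fitted -1.89 ± 0.52 SE, adjusted p = 0.0143) and at least 2.58-fold in mutant muscle (-2.01 ± 0.58 SE, adjusted p = 0.0209). Without innervated mutant 1 the mutant call ended (adjusted p = 0.152). On spike-in centring Col24a1 gave -0.94 in control and -1.50 in mutant muscle, and neither passed (0.146 and 0.0791). Both calls also ended with the 3' minus 5' signal as a covariate (-2.35 and -2.55, adjusted p = 0.0558 and 0.0792).

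Col5a1 and Col5a3 encode chains of type V collagen, which starts and limits the growth of type I fibrils. Col5a1 (probe set 1416740_at) gave 9026, 6962 and 5672 on the innervated control arrays and 4205, 4463 and 5308 on the denervated control arrays. Its mutant signals were 8981 and 10512 innervated and 5427, 4988 and 4268 denervated. All denervated arrays lay below the innervated arrays of their genotype. Col5a1 fell 1.53-fold in control (-0.61 ± 0.18 SE, adjusted p = 0.0206) and 1.99-fold in mutant muscle (-0.99 ± 0.20 SE, adjusted p = 0.00272), while on spike-in centring it gave 0.34 in control and -0.48 in mutant muscle. Col5a3 (probe set 1419703_at) gave 2616, 3516 and 3392 on the innervated control arrays and 2116, 1779.9 and 2647 on the denervated control arrays. Mutant muscle gave 3788 and 4197 with its nerve and 2517, 1941 and 1849.6 without. The control groups of Col5a3 overlapped and the mutant groups did not. Its falls were 1.46-fold (-0.55 ± 0.19 SE, adjusted p = 0.0463) and 1.91-fold (-0.93 ± 0.21 SE, adjusted p = 0.006), and on spike-in centring 0.41 in control and -0.41 in mutant muscle. The Col5a1 control call ended without innervated control 1 or denervated control 1 or 2 (adjusted p = 0.0634 to 0.0926). The Col5a3 control call ended without innervated control 2 or 3, denervated control 1 or 2, either innervated mutant array or denervated mutant 2 or 3 (0.0564 to 0.174), and its mutant call without innervated mutant 2 (0.0555). The third type V chain, Col5a2, gave 0.10 in control (95% interval -0.33 to 0.53) and -0.07 in mutant muscle (-0.55 to 0.41) and did not pass.

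Col11a1, a minor chain of cartilage fibrils, and Col3a1, the type III chain of the sheaths around fibres and vessels, passed in mutant muscle only. Col11a1 (probe set 1418599_at) gave 1557, 1867 and 1009.5 on the innervated control arrays and 420.1, 607 and 1478 on the denervated control arrays. On mutant arrays the values were 2918 and 2259 when innervated and 1419, 549.6 and 449 after denervation. The control groups overlapped through denervated control 3, and the mutant groups did not overlap. Col11a1 gave -0.97 ± 0.46 SE in control muscle (adjusted p = 0.138, or -1.47 and 0.0227 without denervated control 3). It fell 3.58-fold in mutant muscle (-1.84 ± 0.52 SE, adjusted p = 0.0187). That call ended without either innervated mutant array or denervated mutant 2 or 3 (0.0617 to 0.118), and on spike-in centring (-1.32, 0.0516). Col3a1 (probe set 1427883_a_at) gave 94812, 115716 and 93207 on the innervated control arrays and 86462, 79379.5 and 90089 on the denervated control arrays. In mutant muscle it gave 125012 and 120907 when innervated and 102320.1, 91205 and 76356 when denervated. The denervated arrays lay below the innervated ones in each genotype. Col3a1 fell 1.38-fold in mutant muscle (-0.46 ± 0.15 SE, adjusted p = 0.0383), and gave -0.24 ± 0.13 SE in control muscle (adjusted p = 0.205). On spike-in centring the mutant change was 0.056 and the control change a rise of 0.71 (0.00772), and the call ended without either innervated mutant array or denervated mutant 2 or 3 (0.0793 to 0.151). It also ended with median scaling (-0.16, 0.507), quantile normalization (-0.19, 0.477) and the mean of its tested probe sets (-0.38, 0.132). The same held with no minimum arrays (0.113), eBayes without trend (0.0809) and the replicate block over all arrays (0.0941) or in the mutant groups alone (0.221).

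The type I chains Col1a1 and Col1a2, which form the main fibre of tendon and muscle sheath, did not pass by the probe sets chosen for them. Col1a1 (probe set 1423669_at) gave 51292, 50982 and 30385 on the innervated control arrays and 16512, 25353 and 43714 on the denervated control arrays. The innervated mutant arrays gave 59667 and 62639.5, and the denervated mutant arrays 45868, 40568 and 29694. Its control groups overlapped, since denervated control 3 lay above innervated control 3. The changes were -0.71 (95% interval -1.36 to -0.05, adjusted p = 0.0987) and -0.68 (-1.41 to 0.05, adjusted p = 0.155). Col1a2 gave -0.54 (-1.06 to -0.02, adjusted p = 0.115) and -0.74 (-1.33 to -0.15, adjusted p = 0.0607). Leaving out an array made them pass: Col1a1 in control muscle without innervated control 3 (adjusted p = 0.0367) or denervated control 3 (-1.07, 0.00907), and Col1a2 in control muscle without innervated control 3 (0.0189) and in mutant muscle without innervated control 2 or 3 or denervated mutant 1 (0.0285 to 0.0404). Another probe set of each passed in both genotypes: that of Col1a1 fell by 0.66 and 0.61 (adjusted p = 0.007 and 0.0221), and that of Col1a2 fell by 0.77 and 0.92 (0.0411 and 0.0342). Col11a2 (a type XI chain) gave -0.51 and -0.48 and did not pass. Neither did Col27a1, a fibrillar chain of cartilage, and the 95% interval of Col27a1 ran from -0.87 to 1.89 in control muscle.

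Among basement membrane collagens the chains divided by gene. Of 9 tested, Col7a1 rose in both genotypes and Col18a1 in mutant muscle, while Col4a1 fell in both, Col4a3 in control and Col4a2 and Col15a1 in mutant muscle. The class median was -0.29 in control and -0.51 in mutant muscle, and 0.66 and 0.01 on spike-in centring. Col4a1 and Col4a2 encode the major type IV chains, which join in the same molecule in every basement membrane, and they are transcribed in opposite directions from a common promoter.

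Their shared start is shown because it ties both genes to the same stretch of DNA. RefSeq puts the start of Col4a1 (minus strand) and that of Col4a2 (plus strand) at the ends of chr8:11312805-11312826 (GRCm38.p6), 22 bases printed here in the direction of Col4a2.
Col4a1 and Col4a2 starts: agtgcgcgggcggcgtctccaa
Each window upstream of these starts holds CCAAT, and that of Col4a2 also TGCGGT.

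Col4a1 (probe set 1452035_at) gave 29521, 32292 and 36914 on the innervated control arrays and 23259, 23240 and 28096 on the denervated control arrays. Its mutant signals were 42254 and 35744 innervated and 29193, 25579 and 24249 denervated. Innervated arrays were higher than denervated ones in both genotypes. Col4a1 fell 1.32-fold in control (-0.40 ± 0.14 SE, adjusted p = 0.0423) and 1.48-fold in mutant muscle (-0.57 ± 0.15 SE, adjusted p = 0.0163), whereas on spike-in centring it rose by 0.55 in control (adjusted p = 0.0343) and gave -0.05 in mutant muscle. Col4a2 (probe set 1424051_at) gave 14825, 16361 and 15989.8 on the innervated control arrays and 11779, 13921 and 12913 on the denervated control arrays. Mutant muscle gave 18598 and 17618 with its nerve and 14917, 12928 and 13073 without. Innervated arrays were again the higher ones. Col4a2 gave -0.29 ± 0.12 SE in control (95% interval -0.55 to -0.03, adjusted p = 0.092) and fell 1.33-fold in mutant muscle (-0.41 ± 0.14 SE, adjusted p = 0.0405), with 0.11 there and a rise of 0.66 in control muscle (0.00779) on spike-in centring. The Col4a1 control call ended without innervated control 2 or 3, denervated control 1 or 2 or any denervated mutant array (adjusted p = 0.0502 to 0.15), and its mutant call without innervated mutant 1 or denervated mutant 2 or 3 (0.0526 to 0.139). The Col4a2 call ended without innervated control 3, either innervated mutant array or denervated mutant 2 or 3 (0.0514 to 0.171). It also ended with no minimum arrays (0.0606), eBayes without trend (0.0696) and the replicate block over all arrays (0.0829) or in the mutant groups alone (0.115). With median scaling Col4a2 gave -0.11 (0.68) and Col4a1 -0.26 (0.339) in mutant muscle. With the replicate number as a block over all arrays, the control calls of Col4a1 and Col5a3 also ended (adjusted p = 0.057 and 0.063). With the block in the control groups alone, whose numbers may mark shared sources, both calls held. The Col4a1 control call also ended with median scaling (0.182), no minimum arrays (0.0749), eBayes without trend (0.0817) and a fit of the compared groups alone (0.0899). These settings ended the Col5a3 control call too (0.0672 to 0.112). Quantile normalization ended that of Col4a1 (0.0522).

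The remaining type IV chains, Col4a3 to Col4a6, form the minor networks that muscle keeps largely at its synapses. Col4a3 (probe set 1438779_at) gave 971, 1006 and 435 on the innervated control arrays and 42.1, 296 and 244 on the denervated control arrays. On mutant arrays the values were 638 and 1007 when innervated and 359.5, 399 and 328 after denervation. No denervated array of either genotype reached its innervated arrays, and the denervated control mean was near background. Col4a3 fell at least 1.69-fold in control muscle (fitted -2.20 ± 0.57 SE, adjusted p = 0.0103) and gave -1.12 ± 0.63 SE in mutant muscle (95% interval -2.49 to 0.25, adjusted p = 0.216). On spike-in centring its control change was -1.25 and did not pass (adjusted p = 0.0507). Another probe set of Col4a3 fell in both, by 1.80 and 1.35 (adjusted p = 0.00168 and 0.0219). Col4a4 gave -0.74 and -0.51 (adjusted p = 0.0604 and 0.249), and Col4a6 gave 0.06 and -1.14 (0.924 and 0.0568). Col4a4 passed in control muscle without innervated control 3 or innervated mutant 2 (0.0168 and 0.0486), and Col4a6 in mutant muscle without denervated control 1 or 3 or innervated mutant 1 (0.0351 to 0.0481).

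Col4a5, the chain on the X chromosome that pairs with Col4a3 and Col4a4, had the second smallest p between genotypes in denervated muscle. Col4a5 (probe set 1425476_at) gave 850.2, 1148 and 968 on the innervated control arrays and 786, 889 and 825 on the denervated control arrays. In mutant muscle it gave 1245 and 1022 when innervated and 1762, 1708 and 1044 when denervated. The denervated mutant arrays lay above the denervated control arrays. That difference of 0.80 ± 0.23 SE did not pass (95% interval 0.32 to 1.29, adjusted p = 0.116), except without denervated mutant 3 (1.04, adjusted p = 0.0439).

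Col7a1 encodes the chain of anchoring fibrils, known from the skin, and Col15a1 and Col18a1 encode related collagens of the basement membrane zone of muscle and vessels. Col7a1 (probe set 1419613_at) gave 1504, 1312 and 1744 on the innervated control arrays and 2588, 2249.6 and 2562 on the denervated control arrays. The innervated mutant arrays gave 1319.7 and 1462, and the denervated mutant arrays 2388, 2195 and 2399.5. Each denervated array was above the innervated arrays of its genotype. Col7a1 rose 1.62-fold in control (0.70 ± 0.16 SE, adjusted p = 0.00433) and 1.67-fold in mutant muscle (0.74 ± 0.18 SE, adjusted p = 0.00757), with the mutant call lost without innervated mutant 1 (0.0626). With the 3' minus 5' signal as a covariate it gave 0.59 (0.108) and 0.61 (0.159). Col18a1 (probe set 1426955_at) gave 1076, 1644 and 1311 on the innervated control arrays and 1640.5, 1083 and 1885 on the denervated control arrays. Its mutant signals were 1122 and 1088 innervated and 2047, 2021 and 2216 denervated. The control groups overlapped, and the denervated mutant arrays were the highest of all. Col18a1 gave 0.17 ± 0.22 SE in control (adjusted p = 0.596) and rose 1.88-fold in mutant muscle (0.91 ± 0.24 SE, adjusted p = 0.0146). The mutant call ended without innervated mutant 1 or 2 (0.0655 and 0.0795), and the interaction of 0.74 did not pass (adjusted p = 0.623).

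Col15a1 (probe set 1448755_at) gave 2789, 2877 and 2845 on the innervated control arrays and 1786, 2389 and 2239.9 on the denervated control arrays. Mutant muscle gave 3326 and 4370.3 with its nerve and 2041, 2299.6 and 1969 without. Innervated arrays were higher in each genotype, without overlap. Col15a1 gave -0.42 ± 0.16 SE in control (95% interval -0.77 to -0.06, adjusted p = 0.0723) and fell 1.81-fold in mutant muscle (-0.86 ± 0.18 SE, adjusted p = 0.00383), a call that ended without innervated mutant 2 (0.0616). On spike-in centring it rose by 0.54 in control muscle (0.0328) and gave -0.34 in mutant muscle.

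Among the network collagens, Col6a1 and Col6a2 fell in both genotypes and Col6a3 in mutant muscle, and Col8a1 rose in control muscle. Of 5 tested genes 1 rose and 2 fell in control and 3 fell in mutant muscle, with medians of -0.67 and -0.89 that became 0.29 and -0.37 on spike-in centring. Col6a1, Col6a2 and Col6a3 encode the chains of the type VI molecule, whose loss causes congenital muscular dystrophy. Col6a1 (probe set 1448590_at) gave 18425, 17719.7 and 16554 on the innervated control arrays and 9142, 10428 and 13019 on the denervated control arrays. On mutant arrays the values were 21275 and 19678 when innervated and 12958, 11866 and 8700.4 after denervation. Innervated arrays were all above the denervated arrays of their genotype. Col6a2 (probe set 1452250_a_at) gave 18730.1, 22715 and 21713 on the innervated control arrays and 9639, 9251 and 13719.7 on the denervated control arrays. In mutant muscle it gave 24007 and 21122 when innervated and 12433, 11779.8 and 9226 when denervated.

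For Col6a2 as well, every innervated array lay above the denervated arrays of its genotype. Col6a1 fell 1.63-fold in control (-0.71 ± 0.17 SE, adjusted p = 0.0064) and 1.86-fold in mutant muscle (-0.89 ± 0.19 SE, adjusted p = 0.0037), and on spike-in centring gave 0.24 and -0.37. Col6a2 fell 1.96-fold (-0.97 ± 0.17 SE, adjusted p = 0.000879) and 2.04-fold (-1.03 ± 0.19 SE, adjusted p = 0.00167), and on spike-in centring gave -0.02 and -0.51, neither of which passed. Col6a3 (probe set 1424131_at) gave 18493, 19941 and 14951 on the innervated control arrays and 18104, 14885 and 18414 on the denervated control arrays. The innervated mutant arrays gave 26498 and 21109, and the denervated mutant arrays 17042, 18081 and 13356. Its control groups overlapped, and the innervated mutant arrays were the highest. Col6a3 gave -0.05 ± 0.16 SE in control muscle (95% interval -0.41 to 0.30, adjusted p = 0.852) and fell 1.48-fold in mutant muscle (-0.56 ± 0.18 SE, adjusted p = 0.0385), against a rise of 0.90 (0.00182) and -0.04 on spike-in centring. The mutant call ended without innervated mutant 1 or denervated mutant 1 or 3 (0.0598 to 0.259). It also ended with median scaling (-0.26, 0.391), no minimum arrays (0.0547) and eBayes without trend (0.0738). The replicate block over all arrays (0.0788) or in the mutant groups alone (0.0814) ended it as well.

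Col8a1 encodes a short chain known from blood vessel walls and the cornea. Col8a1 (probe set 1455627_at) gave 1684, 2138 and 1932 on the innervated control arrays and 3220.3, 3306 and 5015 on the denervated control arrays. Its mutant signals were 2799 and 3380 innervated and 3842, 3537 and 2371 denervated. Denervated control arrays lay above innervated control arrays, and the mutant groups overlapped. Col8a1 rose 1.96-fold in control muscle (0.97 ± 0.22 SE, adjusted p = 0.00433) and gave 0.05 ± 0.24 SE in mutant muscle (95% interval -0.48 to 0.58, adjusted p = 0.902). The control call ended with the 3' minus 5' signal as a covariate (0.61, adjusted p = 0.195). Another probe set gave 0.89 (adjusted p = 0.00874) and 0.20 (0.584). The interaction, -0.93 ± 0.33 SE, had the smallest p of the members and did not pass (95% interval -1.63 to -0.22, adjusted p = 0.439). Col8a2, its partner chain, gave -0.67 and -1.46 (adjusted p = 0.379 and 0.0829), and passed in mutant muscle without denervated mutant 1 (0.0289).

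No collagen gene passed between genotypes on the deposited scale, and on spike-in centring Col23a1 and Col19a1 passed as lower in denervated mutant muscle. In denervated muscle 0 of 33 passed beside 2.16% of all tested genes, with 3 at an unadjusted p under 0.05 (2958 of 26170 probe sets overall) and a median of -0.02 beside 0.01 over all genes. In innervated muscle 0 passed beside 0% of all genes, again with limma, with 4 at an unadjusted p under 0.05 (1030 of 26170 probe sets overall), and the median was 0.22 beside -3e-04 over all genes, with 23 of 33 higher in the mutant. The smallest p values there were those of Col8a1 (0.68 ± 0.24 SE), Col15a1 (0.42 ± 0.18 SE) and Col6a3 (0.42 ± 0.18 SE), each with an adjusted p of 0.998. In denervated muscle Col23a1, Col4a5 and Col18a1 had the smallest; Col18a1 gave 0.48 ± 0.22 SE (95% interval 0.01 to 0.95, adjusted p = 0.428). The interaction, which subtracts the control response to denervation from the mutant response, passed for 0 of 33 beside 0.262% of all genes, with 4 at an unadjusted p under 0.05 (2017 of 26170 probe sets) and a median of -0.20 beside 0.01. A call in only 1 genotype, as for Col8a1, Col4a3, Col18a1 and the 6 genes that fell in mutant muscle alone, was therefore not shown to differ between the genotypes. The mutant denervation count rested on its 2 innervated arrays: without either of them 10 genes passed in place of 18. The comparisons share groups, so the values above are given side by side and their likeness was not tested.

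Most genes that fold, secrete and crosslink collagen did not pass. Of 26 tested, 6 rose and 1 fell in control and 4 rose and 1 fell in mutant muscle. Medians were 0.01 and -0.17 (0.96 and 0.35 on spike-in centring). Of all tested genes 34.5% passed in control and 30.5% in mutant muscle, and the counts of this and the next lists stand beside those shares. P4hb, the disulfide isomerase that is also the beta subunit of prolyl hydroxylase, rose 1.97-fold in control and 2.78-fold in mutant muscle (adjusted p = 4.73e-05 and 5.78e-06). Loxl1, a crosslinking oxidase, rose 2.56-fold and 2.01-fold (1.88e-05 and 0.000687). Plod2 and Ppib rose in both genotypes too, P3h1 and Lox (also among the fibroblast markers) in control muscle, and Colgalt2 fell in control and P3h3 in mutant muscle. Of 5 tested collagen receptors, Itga1, the alpha chain of a collagen-binding integrin, fell by 0.65 and 0.94 (adjusted p = 0.0233 and 0.00639), although on spike-in centring it gave 0.30 and -0.43, and Itgb1 rose by 0.85 in control muscle (0.0119).

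Breakdown enzymes and their inhibitors moved in both directions: of 12 tested, 3 rose and 2 fell in control and 4 rose and 3 fell in mutant muscle, with medians of 0.29 and -0.14 (1.24 and 0.37 on spike-in centring). Timp1, an inhibitor of matrix metalloproteinases, rose 8.82-fold and 3.85-fold (adjusted p = 8.34e-08 and 1.75e-05), and its relative Timp2 rose 2.56-fold and 2.90-fold (8.72e-06 and 1.19e-05). Mmp3, a protease of several matrix proteins, rose 3.84-fold and 4.35-fold (2.23e-05 and 3.71e-05). Timp4 fell 2.39-fold and 2.50-fold (0.000578 and 0.00115). Timp3 also fell in both, though on spike-in centring it gave 0.15 and -0.04, and in mutant muscle Mmp8 rose and Fap fell. Timp2 was also higher in denervated mutant than in denervated control muscle, by 0.61 ± 0.14 SE (adjusted p = 0.0382), the 1 gene of this list to pass there.

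Of 10 tested partners of type IV collagen in the basement membrane, 6 fell in control and 5 fell and 1 rose in mutant muscle, with medians of -0.64 and -0.60 that became 0.31 and -0.08 on spike-in centring. Lamb2, the laminin chain enriched at the synapse, fell by 1.32 and 0.84 (adjusted p = 1.12e-05 and 0.0013), and Lamc1, the common laminin gamma chain, fell by 0.67 and 0.90 (0.00145 and 0.000508). On spike-in centring Lamb2 gave -0.37 and -0.33 and Lamc1 0.28 and -0.38, and Lama2, Lama4 and Nid2 also turned positive in control muscle. On the deposited scale Lama2 and Lamb1 fell in both genotypes, Lama4 and Nid2 in control and Nid1 in mutant muscle, and Lama5 rose in mutant muscle. Ache, the synaptic acetylcholinesterase that a collagen-like tail anchors, fell 3.26-fold and 3.43-fold (1.72e-05 and 4.13e-05), and by 0.75 and 1.26 on spike-in centring. Colq, which encodes that tail, was not tested, and its control means of 233 and 139.9 lay near background.

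Markers of other cells moved with denervation, and their part in the collagen changes was not tested. Their counts, too, stand beside 34.5% of all tested genes that passed in control and 30.5% in mutant muscle. The summed signal of 8 endothelial markers, cells that make type IV collagen, was 38770 to 41770 on innervated control and 23150 to 26270 on denervated control arrays, and 40960 to 41980 and 26040 to 29650 in mutant muscle. Of them 6 fell in control and 4 in mutant muscle. The sum of 6 pericyte and smooth muscle markers was 141700 to 172700 on innervated and 89170 to 97680 on denervated control arrays, with 6 of 6 falling there and 5 of 6 in mutant muscle (151500 to 160800 and 92150 to 98640). On spike-in centring 0 of the endothelial, pericyte and smooth muscle markers fell in either genotype. The 7 macrophage and leukocyte markers summed to 15460 to 18540 and 55710 to 95490 in control muscle and 13290 to 13740 and 81890 to 95770 in mutant muscle, and 3 and 5 of them rose. Fibroblasts make most fibrillar collagen. Their 9 markers summed to 87690 to 107700 on innervated and 85340 to 117300 on denervated control arrays, which overlapped. In mutant muscle the sums were 126600 to 148100 and 94330 to 142100, which overlapped too. Both innervated mutant arrays lay above every control array, though 0 of the 9 markers passed between genotypes in innervated muscle. With denervation 2 of them rose in control muscle and 0 passed in mutant muscle.

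The 7 cartilage and bone markers summed to 3590 to 5611 on innervated and 4113 to 8908 on denervated control arrays and 7280 to 10040 and 4835 to 9702 in mutant muscle. Matn1, a cartilage matrix gene, was near background in all groups, while Sox9 rose in both genotypes. The 4 Schwann cell markers summed to 8397 to 10500 and 4960 to 5607 in control and 12570 to 12620 and 5539 to 8691 in mutant muscle, with 1 rising and 1 falling in each. Muscle fibre markers were high on every array, at 1004000 to 1835000, and 5 of 7 fell in control and 7 of 7 in mutant muscle, of which 0 fell on spike-in centring. Of 4 satellite cell markers 2 rose in control and 3 in mutant muscle.

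The 6 tendon markers varied between arrays of a group. Their sum was 60174, 92242 and 47010 on innervated and 17147, 36893 and 69136 on denervated control arrays, and 112489 and 69174 against 66491, 41038 and 26506 in the mutant. Mkx was near background in denervated control muscle and the others in no group. Thbs4 fell and Scx rose in both genotypes, but on spike-in centring Thbs4 did not pass in control muscle (adjusted p = 0.128). Denervated control 1 and denervated mutant 3 had the lowest sums, and they also had the lowest signals of Col11a1 (420.1 and 449) and of Col12a1 (660.2 and 391.6). With the sum as a covariate, an alternative chosen after seeing the data, 9 collagen genes passed in control and 12 in mutant muscle. Of these, 8 and 11 had passed without it, while Col23a1 was gained as a rise in control and Col4a6 as a fall in mutant muscle. The calls of Col24a1 (-1.64 and -1.71 in place of -1.89 and -2.01) and Col4a1 (-0.30 and -0.43 in place of -0.40 and -0.57) then ended in both genotypes. In control muscle those of Col4a3 (-1.57), Col5a1 (-0.48) and Col5a3 (-0.40) ended. In mutant muscle Col11a1 (-0.83 in place of -1.84) and Col12a1 (-0.68 in place of -1.82) lost the most, and the calls of Col3a1 (-0.31), Col4a2 (-0.31) and Col6a3 (-0.40) ended as well.

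**Figure D4:**
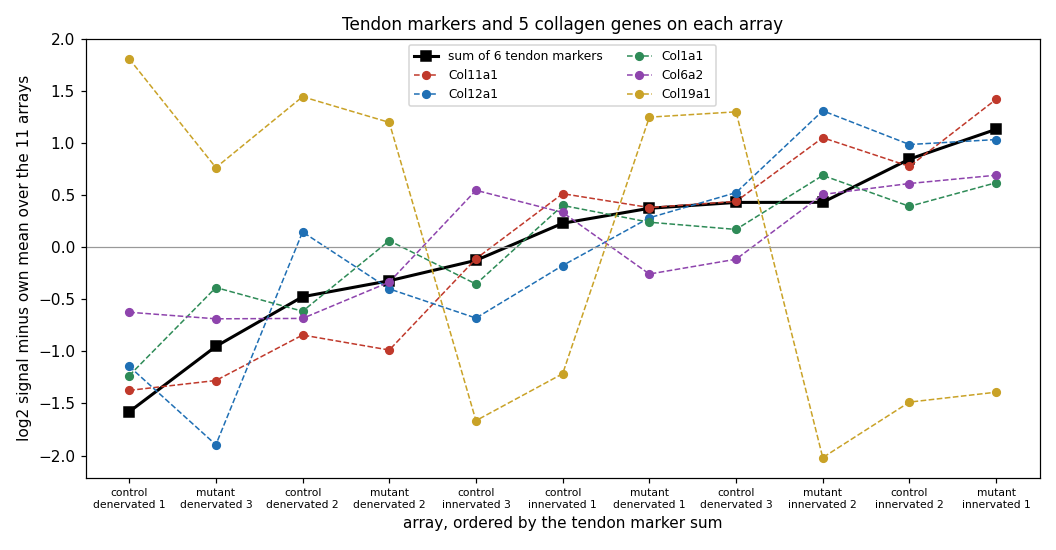
Log2 signal minus its own mean over the 11 arrays, for the sum of 6 tendon markers (black) and 5 collagen genes, with the arrays ordered by the tendon sum. Col11a1, Col12a1 and Col1a1 run broadly with the tendon sum, and the arrays with the lowest sums are denervated. Col19a1 is above 0 on all 6 denervated arrays and below 0 on all 5 innervated arrays. The lines join arrays only to guide the eye.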

How the data were processed

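RNA of 11 tibialis anterior samples was measured on 1-colour microarrays. The deposited values are intensities, 1 linear signal per probe set, with a 2% trimmed mean equal on all arrays within 4.37e-05%; the software and background step that the authors used are not given in the sources used here. Of 45101 probe sets, 64 controls were left out, and a probe set was tested if it exceeded the median of its own array on at least 2 arrays (26170). Annotation gave 1 symbol to 34958, several to 932 and none was listed for 9211. Signals were taken as log2(signal + 16), and fold changes are on that scale, which understates changes of low genes. The model of limma 3.58.1 (R 4.3.3) held a mean per group over all 11 arrays, with trended eBayes and 2-sided tests in 5 comparisons, Benjamini-Hochberg adjusted over all tested probe sets, threshold 0.05.

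The collagen genes, classes, pathway lists and markers were chosen with earlier results of these data known. Signals per array are given for each member that passed in any comparison, for Col13a1 and Col4a2, and for the 3 smallest p-values of a comparison where fewer than 3 passed; Col1a1 was added after its values were seen. From each pathway list up to 4 genes with the smallest p were named with values, and the others called are named without. The script was tested on simulated data. Same-numbered control arrays deviated together (r = 0.114, 0.217 and 0.303 between innervated and denervated arrays), and mutant pairs gave 0.031 and 0.052. The replicate number was therefore tried as a block, as an alternative setting. The main model held no block, so p-values are unpaired unless a block is named. Promoter sequences and gene starts are from RefSeq (GRCm38.p6). No coordinates of probe sets were used.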

Additional observations from a re-analysis of the deposited data

How the results depend on the processing

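Of 31 calls in the denervation comparisons, 6 (Col19a1, Col9a1 and Col22a1 in both genotypes) held without each of 11 arrays and under each of 15 other settings that tested them (Col9a1 was not tested with a minimum of 6 arrays), and 15 held without each array. In control muscle 13 calls became 8 with the 3' minus 5' signal as covariate and 10 to 14 when an array was left out (14 without denervated control 3). On spike-in centring 19 genes passed there (17 up, 2 down). Of the 13 called before, 7 were among them, including Col4a1 with its sign turned. In mutant muscle 18 became 10 with median scaling, 7 with spike-in centring and 10 to 19 when an array was left out. Between genotypes in denervated muscle 0 became 2 with spike-in centring and 0 to 1 when an array was left out. Of the called genes, spike-in centring turned Col4a1 (0.55), Col5a1 (0.34), Col5a3 (0.41) and Col6a1 (0.24) in control and Col3a1 (0.056) and Col4a2 (0.11) in mutant muscle; its cause was not tested. The replicate block over all arrays left 11 calls in control and 14 in mutant muscle, and in the compared groups alone 13 and 16; it made no genotype call. With no minimum arrays 11 and 14 passed. The number of arrays limits precision, and signals near the trp level give only bounds.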
